A study of Mus musculus with 2 samples.

Results

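The mitosis and spindle genes are 43 genes that act in entry into mitosis, in building the spindle, in attaching and separating chromosomes and in splitting the cell. They were chosen by name and function and found on the arrays by gene name or synonym (Cdk1 is listed there under its older name, Cdc2a). All 43 had at least 1 probe, 69 probes in all, and 28 of them were measured, among 6206 genes measured on these arrays.

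The RNA came from dorsal skin of 2 knock-in mouse strains. Lgr5-EGFP-ires-CreERT2 mice carry green fluorescent protein and an inducible Cre recombinase in the Lgr5 gene, and Lgr6-EGFP-ires-CreERT2 mice carry the same cassette in Lgr6. Both genes encode receptors for R-spondins, and the brightest cells of each strain were sorted to compare the populations marked by the 2 promoters (Lgr5-high and Lgr6-high cells). For each sort, 3 mice were combined, so no value belongs to a single animal. The labels give neither age nor hair cycle stage, and name no treatment with a Cre inducer. Both populations were hybridised together on 2 two-colour Agilent arrays, with Lgr5-high RNA in Cy3 and Lgr6-high RNA in Cy5 on array 1 and the dyes exchanged on array 2.

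A dividing cell enters mitosis when cyclin B with CDK1 becomes active, and Polo-like and Aurora kinases then drive assembly of the spindle. Kinetochores tie chromosomes to microtubules, the spindle checkpoint holds the cell until all are attached, and the anaphase-promoting complex then releases the sister chromatids and ends mitosis. RNA of most of these genes accumulates late in the cell cycle and falls in resting cells, so in skin it is found mainly where cells divide, such as the hair matrix and the basal layer of the epidermis.

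Lgr5-high cells had more RNA of 13 of the 28 measured genes, and Lgr6-high cells of 0, by a rule of size. The rule asks for a mean log2 ratio of 1 or more in size (2-fold), with neither array under 0.5 in that direction. Among all genes measured, 4.75% met the rule in the direction of Lgr5-high and 7.27% in that of Lgr6-high. The 13 genes were Kif22, Cdca3, Birc5, Cks1b, Ccnb2, Cdc20, Cdca8, Kif20a, Aurka, Ccna2, Plk1, Incenp and Ccnb1, between 3.60-fold (Kif22) and 2.005-fold (Ccnb1) higher in Lgr5-high cells. For Ccnb1 and Plk1 among them, Lgr6-high RNA was well above background on only 1 array, so their folds rest in part on a level at background. The median log2 ratio of Lgr6-high over Lgr5-high was -0.82 over the 28 genes and -0.05 over all genes. On both arrays 25 of the 28 were lower in Lgr6-high cells, as were 38.6% of all genes, and Bub1, Espl1 and Pttg1 had opposite signs on the 2 arrays.

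No test between the populations was possible, because nothing in the labels shows that different RNA went onto the arrays, so that the dye-swapped pair counts as 1 replicate. Each SD below is over the 2 arrays and holds no spread between animals. In RNA of sorted cells, a smaller share of dividing cells and less mitotic RNA per cell cannot be told apart.

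**Figure D1:**
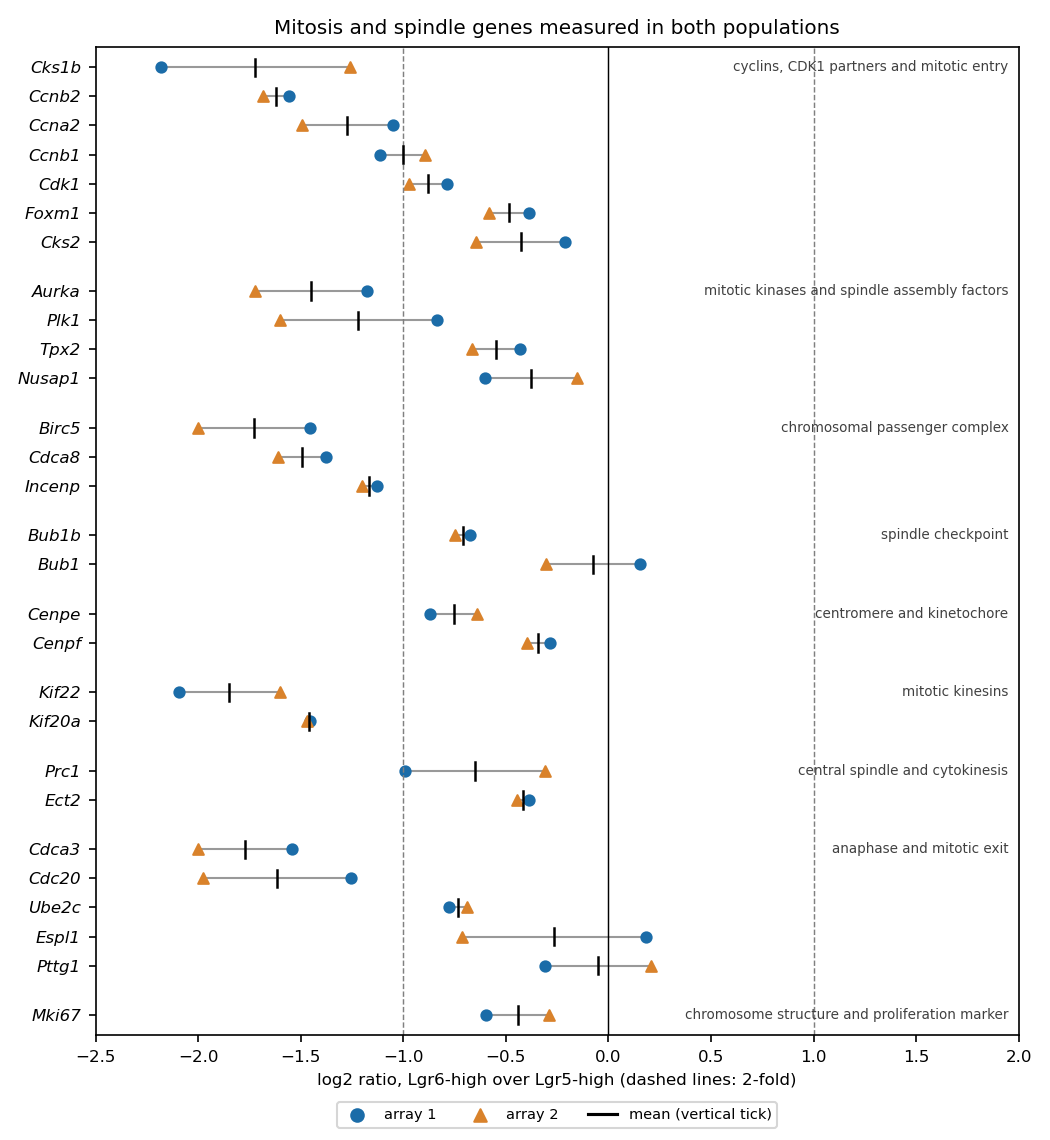
Log2 ratio of Lgr6-high over Lgr5-high (horizontal axis) for each of the 28 measured mitosis and spindle genes (rows, grouped by role), with array 1 as circles, array 2 as triangles and the mean as a vertical tick; dashed lines mark 2-fold. The 13 genes at or beyond the left dashed line were higher in Lgr5-high cells, no gene lies beyond the right one, and Bub1, Espl1 and Pttg1 straddle 0.

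The filter on dim probes bears on these counts, since a probe was kept when well above background for at least 1 population on both arrays. All 28 genes passed through the Lgr5-high cells. Lgr6-high RNA was above background on both arrays for 19 of them and on only 1 array for the other 9 (Ccnb1, Cdk1, Foxm1, Plk1, Tpx2, Nusap1, Bub1b, Cenpf and Espl1), where the direction was partly fixed by the filter. Among the 19, 11 were higher in Lgr5-high cells (4.9% of all genes under that filter) and the median was -1.27. With no filter, over all 43 genes, 13 met the rule (1.06% of all genes) and the median was -0.45.

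The start regions of the 6 genes with the largest ratios are shown first, because most of these genes carry the same pair of short motifs there. The cell cycle homology region (TTTGAA, or TTCAAA read on the other strand) is bound by the MuvB core of the DREAM and B-Myb complexes, and the CCAAT box (CCAAT or ATTGG) by NF-Y. Both are known from promoters of genes expressed late in the cell cycle. Each sequence runs 5′ to 3′ along the gene's strand, from 120 bases before to 30 bases after the start annotated by RefSeq on build GRCm38.p6, and capitals mark either motif on either strand.
Kif22: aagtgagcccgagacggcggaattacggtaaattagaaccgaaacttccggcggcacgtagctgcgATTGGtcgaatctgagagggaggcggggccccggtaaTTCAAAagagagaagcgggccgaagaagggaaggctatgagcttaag
Cdca3: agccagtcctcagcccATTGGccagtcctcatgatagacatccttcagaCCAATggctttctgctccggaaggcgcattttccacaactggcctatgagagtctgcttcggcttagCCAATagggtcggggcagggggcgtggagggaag
Birc5: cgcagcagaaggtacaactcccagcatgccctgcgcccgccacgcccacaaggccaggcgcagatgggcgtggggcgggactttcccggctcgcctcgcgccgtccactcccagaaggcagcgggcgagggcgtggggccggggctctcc
Cks1b: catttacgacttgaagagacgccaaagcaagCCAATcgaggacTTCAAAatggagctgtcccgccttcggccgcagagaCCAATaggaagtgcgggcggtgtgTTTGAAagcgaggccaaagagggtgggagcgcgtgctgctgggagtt
Ccnb2: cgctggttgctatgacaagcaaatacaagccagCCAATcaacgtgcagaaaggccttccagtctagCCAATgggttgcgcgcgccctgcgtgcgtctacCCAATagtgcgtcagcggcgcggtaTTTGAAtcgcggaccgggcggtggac
Cdc20: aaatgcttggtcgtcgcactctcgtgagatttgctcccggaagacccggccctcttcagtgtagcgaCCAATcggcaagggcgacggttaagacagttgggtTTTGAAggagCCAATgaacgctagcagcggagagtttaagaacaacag
In that order they lie at chr7:127042391-127042540 (minus strand), chr6:124830056-124830205 (plus), chr11:117849117-117849266 (plus), chr3:89418262-89418411 (minus), chr9:70421525-70421674 (minus) and chr4:118437314-118437463 (minus). In Kif22 a CCAAT box read on the other strand begins 54 bases before the start and a TTCAAA 17 bases before it. Cdc20 has the same order, CCAAT at -53 and TTTGAA at -18, with another CCAAT at -8. Cks1b holds 2 such pairs, at -89 and -77 and again at -41 and -17. In Ccnb2 a row of 3 CCAAT boxes, at -87, -54 and -21, precedes a TTTGAA at 4. Cdca3 has 3 CCAAT boxes within the stretch, and its TTTGAA begins at 30, just past the last base printed. The Birc5 stretch holds neither string of letters.

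RefSeq promoter windows of 300 bases, 250 before and 50 after the start, were found for 36 of the 43 genes (38 windows, since some genes have several starts). TTTGAA on either strand was in 29 of the 38 windows (76.3%), against 17.9% of all 32851 windows in the table. CCAAT was in 31 (81.6%, against 37.4%), and both motifs were in 26 (68.4%, against 6.95%). The related TTTAAA was in 23.7% of the windows and in 13.2% of all. Windows of other mitosis genes held TTTGAA in 35.0% of cases, and those of DNA replication genes in 12.5%. For the E2F site, TTTGGCGC or TTTCGCGC on either strand, the order was the other way, with 2.63% of the mitosis and spindle windows, 25.0% of the replication windows and 0.813% of all. GGCGGGAA, another E2F-type string, was in none of the 38 windows, in 15.0% of replication windows and in 2.19% of all.

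The TTTGAA matches sat close to the start. Within 50 bases on either side they were in 27 of the 38 windows (71.1%), against 4.94% of all windows, and in the 250 bases before the start alone in 36.8%, against 15.99%. CCAAT was most frequent between 70 and 51 bases before the start, in 36.8% of the windows against 5.56% of all. TTTGAA was in 8 of 10 windows of called genes, 10 of 15 of measured genes that were not called and 11 of 13 of genes that were not measured. A match is a string of letters, and binding was not measured here.

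**Figure D2:**
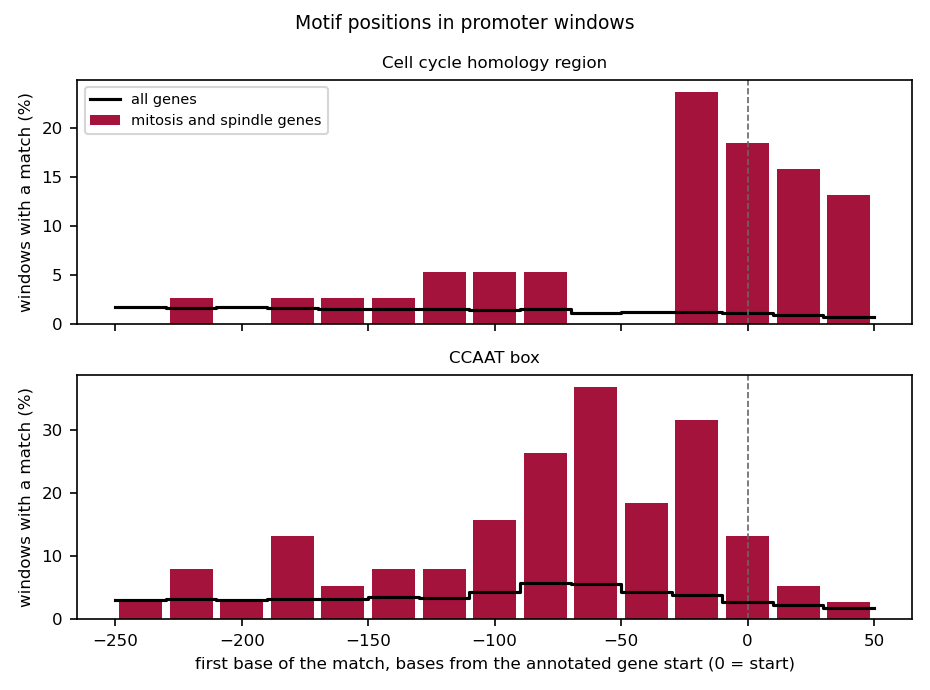
Share of promoter windows with a match (vertical axis, %) by the position of its first base relative to the annotated start (horizontal axis, bases, in steps of 20), for TTTGAA (top) and CCAAT (bottom) on either strand; bars are the 38 windows of the mitosis and spindle genes and the line all 32851 windows. TTTGAA bars stand highest from 30 bases before to 49 bases after the start, and CCAAT bars from 90 to 11 bases before it.

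Levels below are normalised intensities in arbitrary units, given for arrays 1 and 2 in that order and comparable only within a gene. Ratios are log2 of Lgr6-high over Lgr5-high. Populations are said not to overlap where both Lgr5-high levels lay above both Lgr6-high levels. That held for 23 of the 28 genes and for 34.2% of all genes measured. All 28 passed the filter on dim probes through the Lgr5-high cells, whereas the share of all genes takes in genes that passed through either population. For Ccnb1, Cdk1, Plk1, Tpx2, Bub1b and Cenpf among the 23, Lgr6-high RNA was above background on only 1 array. The order of their levels was therefore partly fixed by the filter. Among the cyclins, CDK1 partners and entry regulators, 7 of 8 genes were measured, and 4 were higher in Lgr5-high cells. Ccnb2, a B-type cyclin that activates CDK1, had levels of 1552 and 1612 in Lgr5-high cells and 528 and 502 in Lgr6-high cells. Its ratios were -1.55 and -1.68 (mean -1.62 ± 0.09), and the populations stood well apart on both arrays. Cks1b, a small CDK-binding subunit that also helps target CDK inhibitors for degradation, had levels of 1322 and 844 against 291 and 352. Its ratios of -2.18 and -1.26 (mean -1.72 ± 0.65) gave the widest spread between arrays among the 28 genes, with no overlap of the populations. The mean ratio was -1.27 ± 0.31 for Ccna2, the cyclin of late S phase and early mitosis, with levels of 390 and 350 against 188 and 124.

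Ccnb1, the main cyclin of mitotic entry, had levels of 271 and 215 in Lgr5-high cells and 125 and 116 in Lgr6-high cells, with ratios of -1.11 and -0.90 (mean -1.003 ± 0.15). It lay at the edge of the rule. Its other 2 probes gave means of -0.58 and -0.49, short of 2-fold. Cdk1, the kinase that these cyclins activate, fell just outside, with levels of 188 and 166 against 109 and 84.6 and a mean ratio of -0.88 ± 0.13. Again the populations did not overlap. The transcription factor Foxm1, which activates many of these genes, had a mean of -0.48 ± 0.14 with overlapping levels (180 and 126 against 137 and 84.5). Cks2, a close relative of Cks1b, had levels of 859 and 900 against 741 and 576 and a mean of -0.43 ± 0.31. Its second measured probe gave a similar -0.49.

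Of the 6 mitotic kinases and spindle assembly factors, 4 were measured and 2 were higher in Lgr5-high cells. Aurka, the Aurora kinase of the spindle poles, had levels of 580 and 556 in Lgr5-high and 256 and 169 in Lgr6-high cells, a mean ratio of -1.45 ± 0.38. Plk1, the Polo-like kinase needed from mitotic entry to cytokinesis, had 267 and 258 against 149 and 84.9, a mean of -1.22 ± 0.54. The populations did not overlap for either gene. Tpx2, which recruits and activates Aurora A on spindle microtubules, did not meet the rule, at -0.43 and -0.66 (mean -0.55 ± 0.16). Nusap1, a microtubule-binding protein of the spindle, had a mean of -0.38 ± 0.32 with overlapping levels (182 and 109 against 120 and 97.6).

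The chromosomal passenger complex corrects faulty kinetochore attachments and then directs cytokinesis, and each of its 3 measured genes was higher in Lgr5-high cells. Birc5 (survivin), which docks the complex on chromatin, had levels of 1042 and 1228 in Lgr5-high and 380 and 307 in Lgr6-high cells, a mean ratio of -1.73 ± 0.38. For Cdca8 (borealin), its partner in docking, the levels were 1616 and 1824 against 623 and 597 (mean -1.49 ± 0.17). Incenp, the scaffold that binds and activates Aurora B, had 1245 and 1119 against 569 and 486, and its ratios of -1.13 and -1.20 nearly coincided (mean -1.17 ± 0.05). The populations did not overlap for any of the 3. Aurkb, the kinase of the complex, had its 1 probe above background only for Lgr5-high RNA in Cy3 on array 1 and gave no ratio.

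**Figure D3:**
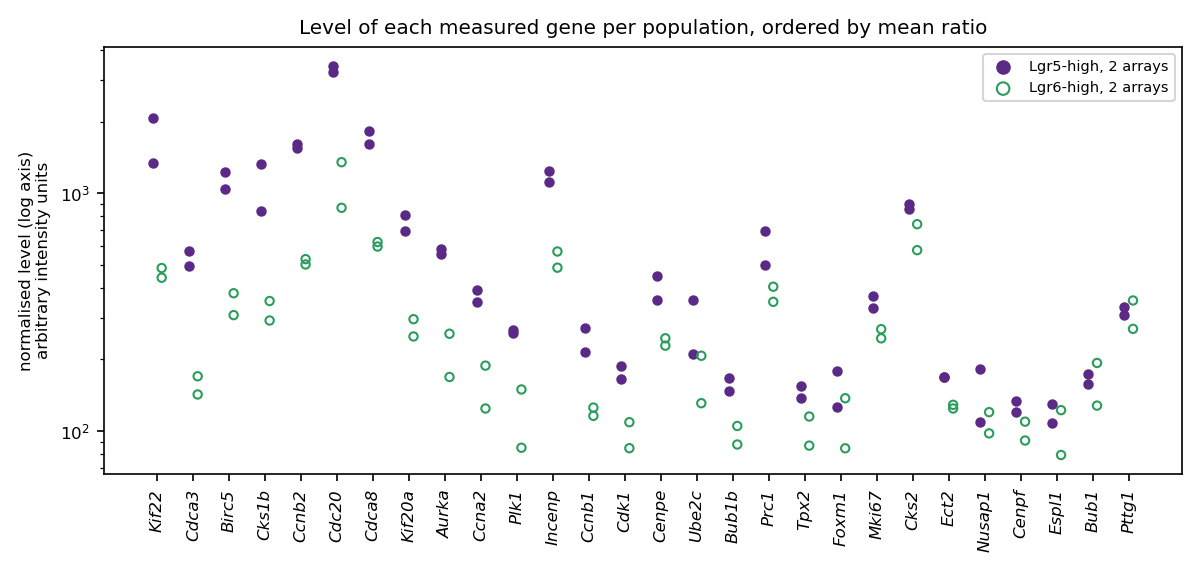
Normalised level (vertical axis, log scale, arbitrary intensity units) of each of the 28 measured genes (horizontal axis, ordered by mean ratio) in Lgr5-high cells (filled) and Lgr6-high cells (open), 1 point per array; heights of different genes are not comparable. Both filled points lie above both open points for 23 genes, though they nearly touch for Ube2c, and the points overlap for Foxm1, Nusap1, Espl1, Bub1 and Pttg1. Among all genes measured, 34.2% had both Lgr5-high levels above both Lgr6-high levels. For Ccnb1, Cdk1, Plk1, Tpx2, Bub1b and Cenpf this order was partly fixed by the filter on dim probes.

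Neither the spindle checkpoint nor the kinetochore genes met the rule with the main processing. By the scanner software's own ratios, described below, Bub1b, Cenpe and Cenpf did. Of 4 checkpoint genes, 2 were measured. Bub1b (BubR1), which inhibits the anaphase-promoting complex, had levels of 167 and 147 in Lgr5-high and 104.9 and 87.7 in Lgr6-high cells, a mean of -0.71 ± 0.05. Bub1, the checkpoint kinase at kinetochores, had ratios of 0.16 and -0.30, and its levels overlapped (173 and 158 against 193 and 128). Among 5 centromere and kinetochore genes, Cenpe, the kinesin that aligns chromosomes, had levels of 448 and 356 against 245 and 228 and a mean of -0.75 ± 0.16. The populations were apart for Cenpe, though by less than 2-fold. Cenpf, a large kinetochore protein, had a mean of -0.34 ± 0.08.

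Both measured mitotic kinesins of the 5 listed were higher in Lgr5-high cells. Kif22 (Kid), which pushes chromosome arms toward the spindle equator, had the largest ratio of the 28 genes, with levels of 2069 and 1340 in Lgr5-high and 485 and 441 in Lgr6-high cells (mean -1.85 ± 0.35). Kif20a, which carries the chromosomal passenger complex to the central spindle, had 809 and 691 against 295 and 250. Its ratios of -1.45 and -1.47 were the closest pair of all (mean -1.46 ± 0.01), and its second probe gave -1.11. Of the 4 genes of the central spindle and cytokinesis, 2 were measured and neither met the rule. Prc1, which bundles the antiparallel microtubules of the central spindle, had levels of 695 and 501 against 349 and 404 and ratios of -0.99 and -0.31. Ect2, the exchange factor that activates RhoA at the cleavage furrow, had a mean of -0.42 ± 0.04.

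All 5 genes of anaphase and mitotic exit were measured, and 2 were higher in Lgr5-high cells. Cdc20, the activator of the anaphase-promoting complex that the checkpoint holds back, had levels of 3226 and 3417 in Lgr5-high and 1351 and 869 in Lgr6-high cells, a mean ratio of -1.62 ± 0.51. Cdca3, an F-box-like protein that promotes degradation of the CDK1 inhibitor Wee1, had 494 and 569 against 170 and 142 (mean -1.77 ± 0.33). The populations were well apart for both genes, and the second probe of Cdca3 gave -0.89. Ube2c, the ubiquitin-conjugating enzyme of the same complex, had levels of 355 and 211 against 207 and 131 and a mean of -0.73 ± 0.07. Its lower Lgr5-high level and its higher Lgr6-high level nearly touched.

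Securin and separase, which control cleavage of cohesin between the sister chromatids, did not separate the populations. Pttg1 (securin) had levels of 333 and 306 in Lgr5-high and 269 and 354 in Lgr6-high cells, with ratios of -0.31 and 0.21. For Espl1 (separase) the levels were 108 and 130 against 122 and 79.2, with ratios of 0.18 and -0.71. In both genes the sign turned with the array. Mki67, which coats mitotic chromosomes and is widely used to mark proliferating cells, had levels of 371 and 328 against 245 and 268. Its mean ratio was -0.44 ± 0.22, lower in Lgr6-high cells on both arrays without meeting the rule.

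The other 15 genes gave no ratio. For Cenpa, Kif23, Mad2l1, Nek2, Racgap1 and Top2a a probe was well above background in Cy3 for both populations, that is for Lgr5-high RNA on array 1 and Lgr6-high RNA on array 2, but not in Cy5. Cy3 was the more sensitive dye: 31.6% (array 1) and 33.3% (array 2) of probe spots were above background in it, against 15.3% and 16.2% in Cy5. Setting the Cy3 levels of the arrays against each other gave -1.06 for Cenpa, the centromeric histone, and -0.71 for the centrosomal kinase Nek2. Kif23 and Top2a gave -0.52, Racgap1 -0.46 and Mad2l1 -0.31. All 6 were below 0, as were 5056 of all 9075 genes in the same comparison. It runs across arrays and has no dye-swapped partner. In Cy3 alone, 17 of 34 mitosis and spindle genes were at -1 or below, against 5.70% of 9075 genes.

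Aurkb, Cdc25c, Kif2c and Spc25 were above background only for Lgr5-high RNA in Cy3 on array 1. Hmmr, Ttk, Ndc80, Kif11 and Anln were above it in neither population on either array. Nothing can be said of a difference for these 9 genes at this sensitivity. Of 21 genes with several probes, the probe nearest the 3′ end was the brightest in 14; the RNA had been amplified before labelling.

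The size of the ratios differed with brightness. For the 11 measured genes with a mean log2 intensity under 7.5 the median ratio was -0.48 and 2 met the rule, and for the 17 brighter genes it was -1.45 and 11 did. Apart from Bub1 and Ect2, the 11 dimmer genes were those whose Lgr6-high RNA was above background on only 1 array. The share of all genes that met the rule at each brightness was not computed, so these counts do not set the mitosis and spindle genes apart. The scanner software's own ratios, which add no offset to dim spots, gave medians of -1.56 and -1.51 for the same groups. By those ratios 21 of the 28 genes met the rule of size (15.5% of all genes in that direction). Cdk1 then stood at -2.99 and -2.37, Bub1b at -2.87 and -2.02 and Foxm1 at -1.40 and -1.72. These 3 genes met the rule by the scanner's ratios and missed it after normexp and loess, as did Tpx2, Nusap1, Cenpf, Cenpe and Ube2c. For all of them but Cenpe and Ube2c, Lgr6-high RNA was not well above background on array 1, so the size of that array's ratio is uncertain. Cenpe and Ube2c were above background in both populations on both arrays. The scanner's error model gave a p-value under 0.01 on both arrays, with the lower level in Lgr6-high cells, for 22 of the 28 genes and for 18.1% of all genes. Such a p-value comes from the spots of 1 array and holds no spread between animals. For Ccnb1, Cdk1, Foxm1, Plk1, Tpx2, Nusap1, Bub1b and Cenpf among the 22, the direction was also partly fixed by the filter on dim probes.

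Other settings gave other counts among the 28 genes, all in the direction of Lgr5-high. Without background subtraction 10 met the rule (3.29% of all genes), and 7 did when outlier-marked spots entered the background model (2.43%). A smaller normexp offset of 10 gave 15 (7.75%), and the median over a gene's probes gave 12 (4.43%). On array 1 alone 12 genes were at -1 or below (5.06% of all), and on array 2 alone also 12 (7.57%). With limma, a Benjamini-Hochberg adjusted p under 0.05 together with a mean ratio of at least 1 in size called the same 13 genes (4.87%). With median centring in place of loess, 0 met the rule (0.918%), since the median of the 28 genes was -2.31 on array 1 and 0.49 on array 2.

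**Figure D4:**
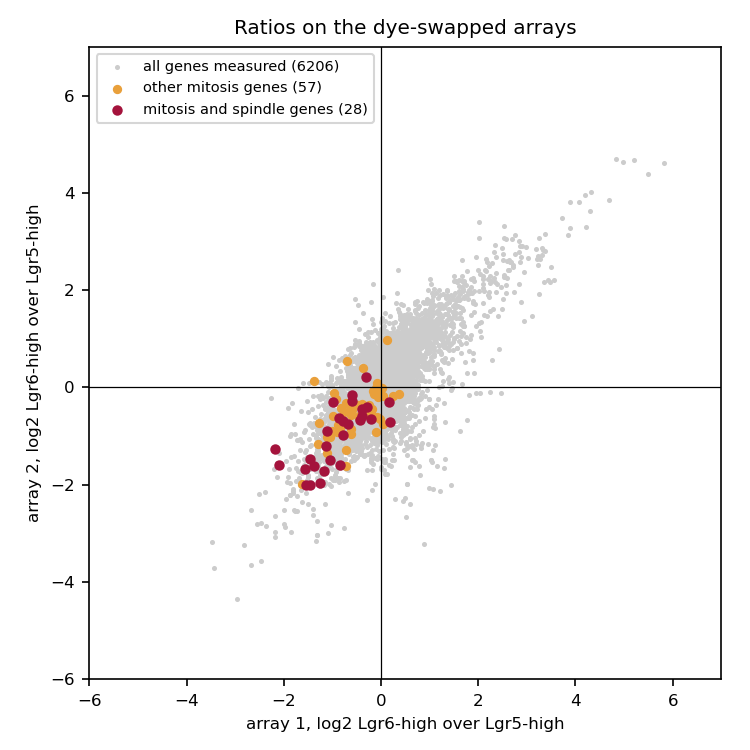
Log2 ratio of Lgr6-high over Lgr5-high on array 1 (horizontal axis) and array 2 (vertical axis), 1 point per gene, for all 6206 genes measured (grey), 57 other mitosis genes (orange) and the 28 mitosis and spindle genes (red). The 25 red points in the lower left quadrant were lower in Lgr6-high cells in both dye orientations.

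A further 114 genes of mitosis outside the 43 were examined, of which 57 were measured. The rule of size was met by 9 in the direction of Lgr5-high (15.8%, against 4.75% of all genes measured) and by 0 in the other (against 7.27%). Their median ratio was -0.51, and 47 were lower in Lgr6-high cells on both arrays. Those with the largest ratios were Cdca5 (sororin), which protects cohesin, at -1.81 ± 0.25, and Tubg1, the gamma-tubulin that nucleates microtubules, at -1.23 ± 0.17. Anapc11, the catalytic RING subunit of the anaphase-promoting complex, was at -1.22 ± 0.09, and Haus8, a subunit of the augmin complex that branches spindle microtubules, at -1.16 ± 0.63. The condensin subunits Ncapd2 and Ncapg, which compact mitotic chromosomes, were at -1.06 ± 0.06 and -1.04 ± 0.02. By role, the rule was met by 3 of 11 condensin and cohesin genes, 3 of 14 spindle, centrosome and cytokinesis genes, 2 of 17 entry and exit regulators and 1 of 15 kinetochore and checkpoint genes. The last share, 6.67%, lay near that of all genes.

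DNA replication genes, which act in S phase, were set beside the mitosis and spindle genes as a second group of the cell cycle. Of 44 listed, 35 were measured, and 16 were higher in Lgr5-high cells (45.7%, against 4.75% of all genes measured). The median was -0.89, beside -0.82 for the mitosis and spindle genes. The largest ratios were those of Tk1 (thymidine kinase, -1.98 ± 0.35), Dut (dUTPase, -1.78 ± 0.31), Rfc2 (a clamp loader subunit, -1.69 ± 0.10), Mcm7 (a subunit of the replicative helicase, -1.64 ± 0.11), Tyms (thymidylate synthase, -1.60 ± 0.05) and Pold1 (catalytic subunit of polymerase delta, -1.46 ± 0.20). Whether the mitotic and the replication genes differed from each other was not tested.

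**Figure D5:**
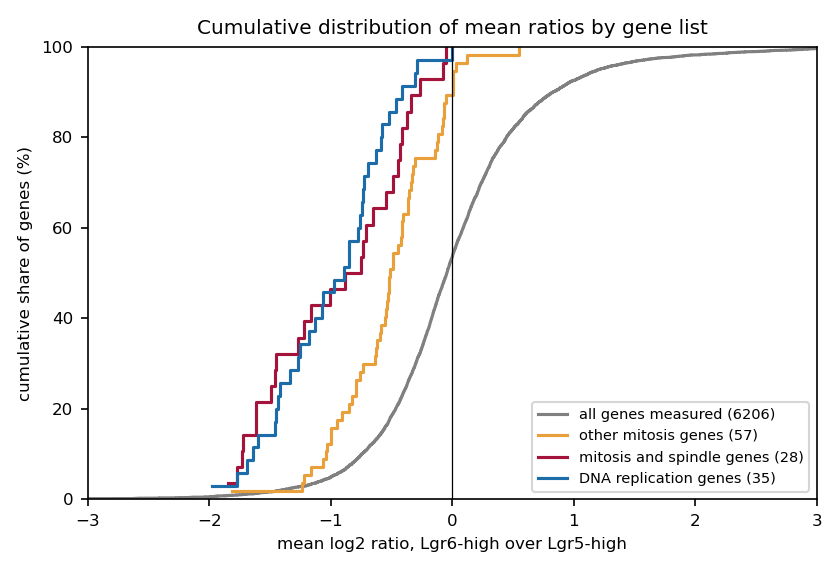
Cumulative share of genes (vertical axis, %) by mean log2 ratio of Lgr6-high over Lgr5-high (horizontal axis) for the mitosis and spindle genes, the other mitosis genes, the DNA replication genes and all genes measured. The curves of the mitosis and spindle genes (median -0.82) and of replication genes (-0.89) run together, with other mitosis genes (-0.51) between them and all genes (-0.05).

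Markers of other cell types also differed between the sorts. The counts below stand beside 4.75% of all genes measured that met the rule toward Lgr5-high and 7.27% toward Lgr6-high. Keratinocyte markers were all measured (10 of 10) with a median of 1.12, and 6 were higher in Lgr6-high cells. Krt5 (1.82 and -0.15) and Krt14 (2.24 and -0.10) had opposite signs on the 2 arrays and did not meet the rule. All 10 markers were above background in both populations on both arrays, so both sorts held keratinocyte RNA. Their summed level was 53603 and 99071 in Lgr5-high and 198663 and 103317 in Lgr6-high cells, so the sums lay far apart on array 1 and close together on array 2. Each sum here covers every listed marker with a probe, measured or not, with the normexp offset subtracted. Levels of different genes are not comparable, so a sum compares only the populations within a list. Where few markers were measured, the sums rest partly on signal near background. In the direction of the mitotic genes, 6 of 10 measured dermal fibroblast markers (16 listed) were higher in Lgr5-high cells, with sums of 4614 and 2981 against 1544 and 1235. Postn went the other way on both arrays (0.47 and 1.09) without meeting the rule. Pdgfra, Mfap5 and Dpt were above background in neither population. Endothelial and mural markers were higher in Lgr5-high cells for 4 of 5 measured (14 listed; sums of 3515 and 3154 against 1463 and 1272), while 9, among them Pecam1, Cdh5 and Kdr, were never above background. Acta2, the remaining measured one, was higher in Lgr6-high cells on both arrays (0.60 and 1.19) without meeting the rule. Markers of hair matrix, inner root sheath and hair shaft were higher for 3 of 5 measured (18 listed; sums of 1805 and 1134 against 641 and 316). Within that list Krt31, Krt34, Krt85, Hoxc13 and Shh were never above background. The 1 melanocyte marker measured (8 listed) was higher in Lgr5-high cells, with sums of 438 and 244 against 208 and 136. None of 14 leukocyte markers was measured (sums of 323 and 310 against 368 and 285), and 10, Ptprc among them, were never above background. The part of these other cells in the mitotic ratios was not tested.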

How the data were processed

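RNA of Lgr5-high and Lgr6-high cells was measured on 2 dye-swapped arrays from 1 slide and scan, so neither could differ between the populations. The authors deposited the mean and local background intensity of each spot in both dyes. The same deposited tables hold the scanner software's log10 ratio and its p-value, and the authors' value table holds the same log10 ratios turned to Lgr6-high over Lgr5-high. Per the file headers the software was Feature Extraction 10.5.1.1; the submitters' processing notes name 9.5.3.

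Background was corrected with normexp in limma 3.58.1 (R 4.3.3), with an offset of 50, which shrinks the ratios of dim spots. Outlier-marked spots stayed out of the fit of this model. Loess then ran per array, controls having weight 0. Of 45018 spots per array, 1639 were controls, 139 and 204 probe spots were marked and left out, and none was saturated. Levels were also scaled between arrays (Aquantile). Probes (41174) were kept if well above background for at least 1 population on both arrays, and each gene was represented by its brightest passing probe. Names came from accessions in a RefSeq table, then symbols and synonyms. Probes named Aim1 and Lnp, synonyms of Aurkb and Nusap1, were left out because their accessions belong to other genes. Probe positions in the files are on mm9.

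All measured members were to be named with their values, other mitosis and replication genes up to the 6 largest called ratios, and promoters for the 6 largest called members. Members and lists were chosen with earlier results of these data known. Limma (lmFit, eBayes, Benjamini-Hochberg adjustment) served as an alternative call; its p-values hold only the spread of the 2 hybridisations, which may be technical. The rule of size and the limma call were tried on simulated ratios with Gaussian noise. That simulation held no dye bias, background or filter, so it did not test those steps. Alternatives of background, scaling, filter, probe choice, arrays and promoter window were also run; the Cy3 comparison and the window of 50 bases on each side were chosen after seeing the data. The number of arrays limits the precision. Slide position, probe sequence and exon annotation were not used here.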

Additional observations from a re-analysis of the deposited data

How the results depend on the processing

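The mean ratio stayed below 0 in every setting for the 13 called genes (154 of 154 values), and in 320 of 327 values over all 28 genes, the exceptions lying in Bub1, Espl1 and Pttg1. Many of these values could not differ in sign. The filter settings reuse the main ratios, and the authors' value table repeats the scanner's. For called genes, the rule itself fixes the sign on each array alone. The number of called genes changed with the setting. The scanner's own ratios and the authors' value table each gave 21 called mitosis and spindle genes (median -1.54), 30 other mitosis genes and 30 replication genes. Without background subtraction the median was -0.56, with 3 other mitosis and 10 replication genes called. With the background model fitted on all spots, 7 mitosis and spindle genes were called (median -0.51), 3 other mitosis and 9 replication genes. An offset of 10 gave a median of -1.20 and 20 other mitosis genes. Median centring without loess called 0 genes in each of the 3 lists: the medians of the 28 genes were then -2.31 on array 1 and 0.49 on array 2, so without loess the direction on array 2 alone was the opposite. The median was -0.45 with no filter, -1.27 with both populations above background, -0.74 by the median over probes, and -1.02 in Cy3 alone, where 18 other mitosis genes were called. Leaving out 1 array gave medians of -0.85 to -0.82 and 12 called genes either way. Limma's adjusted p with the 2-fold minimum called 13.

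Over all genes, the calls toward Lgr6-high and toward Lgr5-high numbered 451 and 295. They numbered 959 and 959 by the scanner's ratios, 212 and 204 with no background subtracted, 124 and 151 with all spots in the background model, 725 and 481 with an offset of 10, and 134 and 57 with median centring. Ccnb2, Cks1b, Birc5, Cdca8, Kif22, Cdc20 and Cdca3 lost their call only with median centring; Ccnb1 kept it in 6 of 11 alternatives, Plk1 in 7 of 11 and Ccna2 in 9 of 12. In the 250 bases before the start, TTTGAA was in 36.8% of promoter windows and both motifs in 34.2%; within 50 bases of the start CCAAT was in 57.9%. No paired analysis was possible because the 2 arrays count as 1 replicate, which leaves no replicates to block on; each ratio is itself a comparison within an array. Cy5 signal over background limits the 15 genes without a ratio.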
